A study of Rattus norvegicus with 28 samples.

Results

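Matrix metalloproteinases and their inhibitors were described through 7 genes in whole kidneys of female rats: the proteases Mmp9, Mmp2 and Mmp14, the tissue inhibitors Timp1, Timp2 and Timp3, and the matrix Gla protein gene Mgp. Members were the probe sets whose symbol in the platform annotation was one of these names. All 7 names were present, with 14 probe sets among the 31042 that were not controls. Each gene was represented by its probe set of highest mean over the 28 arrays, as 1 of 14217 genes chosen in the same way.

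The study, titled as one of proteinuria, crossed 2 strains with 2 states, each of the 4 groups having 7 Affymetrix arrays. SBN/y, the Sabra strain known to resist salt-induced hypertension, and SBH/y, the Sabra strain known to develop it and to lose protein in the urine, were studied either sham-operated, with both kidneys left in the animal, or after removal of the right kidney (uninephrectomy). All animals were female, were fed rat chow and were killed at 5 months of age, 4 months after the operation. No gene was altered by design, and the strains differ across the genome. The labels number the arrays of a group from 1 to 7 and do not tie a number to an animal. All p-values below thus rest on the variation between arrays, part or all of which may be technical.

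Matrix metalloproteinases are zinc enzymes that cut collagens and other proteins outside the cell. They are made as inactive proenzymes. Mmp2 and Mmp9 are the gelatinases, which cut denatured collagen and the type IV collagen of basement membranes, and Mmp14 sits in the cell membrane and activates the proenzyme of Mmp2 with the help of Timp2. The Timp proteins bind active metalloproteinases and block them. In the kidney these proteins are known for the turnover of glomerular and tubular basement membrane and of scar matrix. Mgp is a vitamin K-dependent inhibitor of calcification and is not known as an inhibitor of proteases. The proteins and their activity were not measured.

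Kidney identity was borne out by the deposited log2 values. The thick ascending limb gene Umod lay between 13.14 and 13.43 over all groups, the proximal tubule receptor Lrp2 between 12.41 and 12.56, and the podocyte gene Nphs1 between 5.76 and 7.02. Array medians lay between 5.72 and 5.77. The number of arrays limits the precision, and signal over background was not measured. A log2 difference from or to a value below the array medians therefore gives no exact fold of RNA. In bulk tissue, fewer cells of a type and less RNA per cell cannot be told apart. In comparisons of the strains, a sequence variant that weakens hybridization in either strain and a lower RNA level cannot be told apart.

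Timp1 was the member whose response to uninephrectomy passed the test of a difference between the strains, so the 250 bases before its start are shown beside those of Timp2 and Timp3, the other members with a promoter in the table of RefSeq sequences used here (build GRCr8). Capitals mark matches to 2 motifs, the AP-1 variant TGAGTAA and the GC box GGGCGG. Each sequence runs 5′ to 3′ on the strand of its gene, which is the minus strand for all 3 genes, and its last base lies just before the start. Timp1 lies at chrX:3771123-3771372, Timp2 at chr10:104089215-104089464 and Timp3 at chr7:19459559-19459808.
Timp1: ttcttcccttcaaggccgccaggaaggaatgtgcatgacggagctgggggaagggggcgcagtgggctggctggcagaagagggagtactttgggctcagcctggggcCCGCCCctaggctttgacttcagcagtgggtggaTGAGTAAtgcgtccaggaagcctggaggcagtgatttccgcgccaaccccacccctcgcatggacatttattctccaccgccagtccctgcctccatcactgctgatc
Timp2: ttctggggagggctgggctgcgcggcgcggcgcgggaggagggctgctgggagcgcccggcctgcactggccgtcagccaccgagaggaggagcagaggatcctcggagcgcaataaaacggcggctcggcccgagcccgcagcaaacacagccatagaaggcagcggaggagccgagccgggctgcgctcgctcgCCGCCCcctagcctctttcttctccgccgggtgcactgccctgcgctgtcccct
Timp3: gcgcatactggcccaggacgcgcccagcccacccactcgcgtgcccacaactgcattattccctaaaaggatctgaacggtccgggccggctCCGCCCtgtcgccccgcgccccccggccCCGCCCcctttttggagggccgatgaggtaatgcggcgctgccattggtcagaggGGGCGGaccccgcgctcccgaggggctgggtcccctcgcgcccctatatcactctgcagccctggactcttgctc

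Both strands were searched for 5 motifs: AP-1 (TGANTCA), the AP-1 variant (TGAGTAA), the GC box (GGGCGG), the TATA box (TATAAA) and the cyclic AMP response element (TGACGTCA). AP-1, the complex of Fos and Jun proteins, is known to act on many metalloproteinase and Timp genes. Timp1 held the AP-1 variant 108 to 102 bases before the start, on the strand of the gene. The same letters were found in 2.4% of 33469 windows of this length. All 3 windows held the GC box, with 1 match in Timp1, 1 in Timp2 and 3 in Timp3, as did 30.5% of all windows. AP-1 (6.3% of windows), the TATA box (12.9%) and the cyclic AMP response element (1.6%) had no match in these 3 windows. A match describes letters in the reference strain's genome. It is no measured binding, and neither Sabra strain's own sequence was used here.

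Mmp9 gave the largest strain difference among the members. With both kidneys its deposited log2 value in SBN/y had a lowest, median and highest array of 4.13, 4.31 and 4.71, against 5.63, 5.87 and 6.45 in SBH/y. After uninephrectomy the corresponding values were 3.69, 3.87 and 4.08 in SBN/y and 4.91, 5.62 and 5.82 in SBH/y. Every SBH/y array lay above every SBN/y array, with both kidneys and after uninephrectomy. The log2 difference was 1.53 ± 0.13 (SE from limma, n = 7 arrays per group; here and below) in each state, a 2.89-fold difference, with a limma adjusted p of 8.09e-11 with both kidneys and 7.28e-11 after uninephrectomy. These values were dim. Mmp9 lay below the median of its own array in all 7 SBN/y arrays of each state, in 2 of 7 SBH/y arrays with both kidneys and in 6 of 7 after uninephrectomy.

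After uninephrectomy the Mmp9 value was lower than with both kidneys. In SBH/y it fell by 0.49 ± 0.13 on the log2 scale (limma adjusted p 0.0132), with 4 of 7 arrays below every array with both kidneys. Within the uninephrectomized SBH/y group, arrays 5, 6 and 7 lay at 5.11, 4.91 and 5.04 and the other 4 between 5.62 and 5.82. In SBN/y the log2 difference was also -0.49 ± 0.13, and all 7 arrays lay below those with both kidneys. It did not pass the threshold over all probe sets (limma adjusted p 0.0793), while an exact two-sided permutation test of the 7 against 7 arrays gave 0.000583, the smallest p such a test can give, unadjusted. Without array 3 of SBH/y with both kidneys, which enters only the shared estimate of the spread, it passed (limma adjusted p 0.0481). The uninephrectomy effects of the strains differed by 0.00 ± 0.18 (limma adjusted p 0.999).

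A second Mmp9 probe set, dimmer still with a mean of 3.84 over all arrays, was also higher in SBH/y, by 0.70 ± 0.09 with both kidneys and by 0.39 ± 0.09 after uninephrectomy, both called. Its uninephrectomy effect was -0.32 ± 0.09 in SBH/y, called, and -0.01 ± 0.09 in SBN/y, not called. Both Mmp9 probe sets were thus higher in SBH/y, by unequal amounts.

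Leucocytes are known sources of Mmp9, and some of their markers also differed between the strains. Of all genes 21.5% were called between the strains with both kidneys and 26.8% after uninephrectomy. Of 19 measured macrophage and monocyte markers, 12 were higher and 2 lower in SBH/y with both kidneys, with a mean level of the list of 6.65 to 6.94 in SBN/y and 6.96 to 7.24 in SBH/y. After uninephrectomy 14 were higher and 2 lower, with 6.71 to 6.87 in SBN/y and 7.02 to 7.37 in SBH/y. The array ranges of the list did not overlap between the strains in either state. Of 6 measured neutrophil markers, 2 were higher and 0 lower in each state, not the same 2. Fcgr3a was higher in both states, by 0.89 ± 0.11 and 1.11 ± 0.11. The other was S100a9 with both kidneys and Camp after uninephrectomy, where S100a9, at 0.15 ± 0.27, was not called. The neutrophil genes S100a8, Cxcr2 and Csf3r lay below the array median in every array. The mean level of the neutrophil list was 4.05 to 4.57 and 4.31 to 4.77 with both kidneys, and 4.07 to 4.19 and 4.22 to 4.44 after uninephrectomy, in SBN/y and SBH/y respectively. T cell markers went the other way with both kidneys, with 5 of 9 lower and 1 higher in SBH/y, among them Cd3d at -0.38 ± 0.07. After uninephrectomy 1 was higher and 0 lower. Uninephrectomy of SBH/y was followed by 5 higher and 0 lower macrophage markers, and by 1 higher and 1 lower neutrophil marker. Of all genes 10.4% were called there. The higher neutrophil marker was Camp, with a log2 change of 0.25 ± 0.07. The lower one, the calprotectin gene S100a9, had a log2 change of -1.11 ± 0.27, after having been higher in SBH/y than in SBN/y by 0.93 ± 0.27 with both kidneys. It lay below the array median in all arrays but 1. The part of these cells in the Mmp9 differences was not tested.

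**Figure D1:**
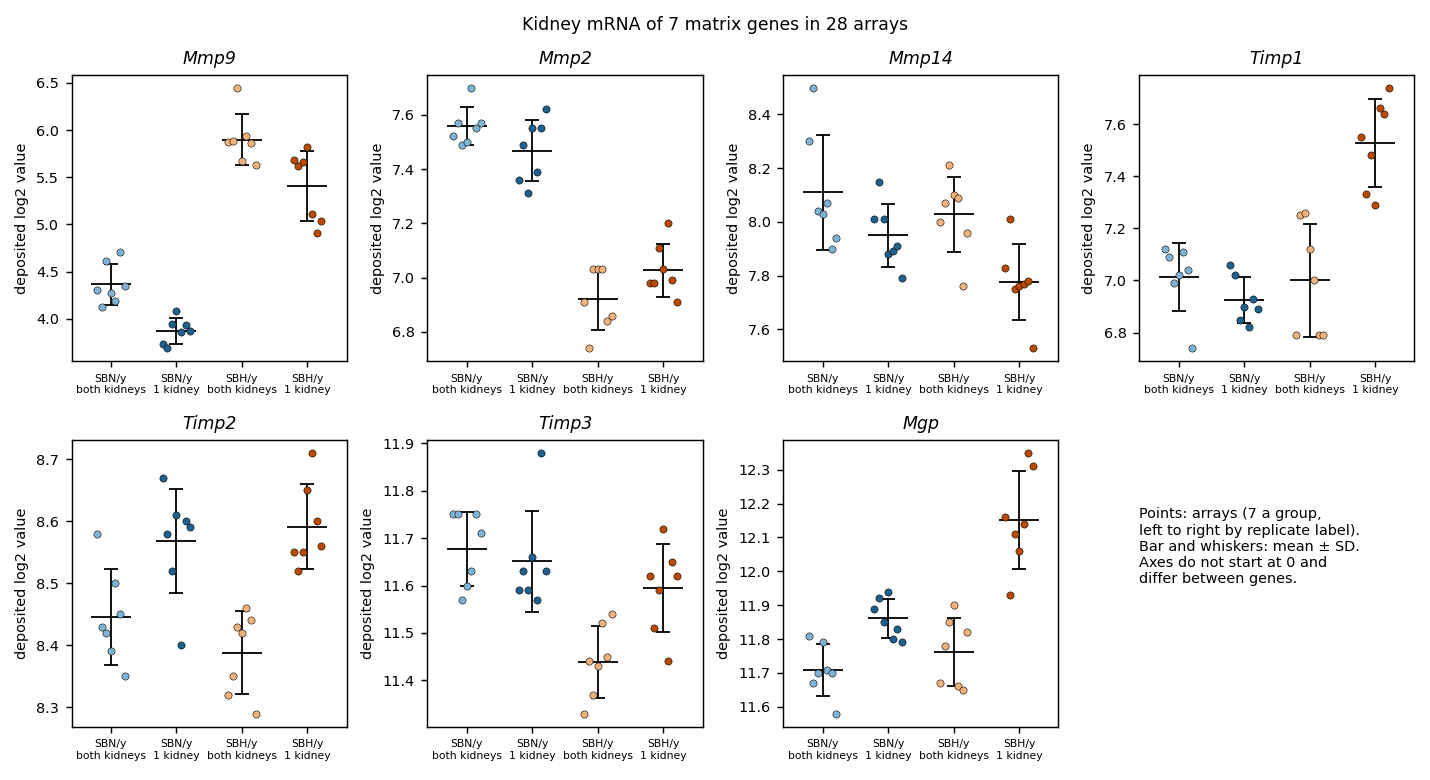
Deposited log2 values of the 7 genes (vertical axes, which differ between genes and do not start at 0) in each of 28 arrays, by strain and number of kidneys; points are arrays and the bar with whiskers is the group mean with its SD. Mmp9 and Mmp2 separate the strains in opposite directions, and Timp1 is highest in all 7 uninephrectomized SBH/y arrays.

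Mmp2, the other gelatinase gene, differed between the strains in the opposite direction. With both kidneys the lowest, median and highest log2 values were 7.49, 7.55 and 7.70 in SBN/y and 6.74, 6.91 and 7.03 in SBH/y. After uninephrectomy they were 7.31, 7.49 and 7.62 in SBN/y and 6.91, 6.99 and 7.20 in SBH/y. No SBH/y array reached the SBN/y range in either state. The log2 difference was -0.64 ± 0.06 with both kidneys, or 1.56-fold lower in SBH/y (limma adjusted p 1.59e-10), and -0.44 ± 0.06 after uninephrectomy (limma adjusted p 2.31e-07). Uninephrectomy effects were -0.09 ± 0.06 in SBN/y and 0.11 ± 0.06 in SBH/y, neither past the threshold, and their difference of 0.20 ± 0.08 was not called (limma adjusted p 0.265).

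The second Mmp2 probe set, with a mean of 4.96, gave -0.11 ± 0.08 with both kidneys and -0.11 ± 0.08 after uninephrectomy, neither called. The Mmp2 strain difference therefore rests on the brighter probe set. Stromal markers are counted beside the shares of all genes called between the strains, 21.5% with both kidneys and 26.8% after uninephrectomy. Of 12 fibroblast markers, 2 were higher and 2 lower in SBH/y with both kidneys, and 4 higher and 2 lower after uninephrectomy, with array ranges of the mean level that overlapped in each state. Of 11 smooth muscle and pericyte markers, 3 were lower and 0 higher with both kidneys, Cspg4 at -0.65 ± 0.08 among them. After uninephrectomy 2 were lower and 1 higher. Of 9 adipose markers, 2 were lower and 0 higher with both kidneys. These were the brown fat gene Ucp1 at -2.74 ± 0.38 and Fabp4 at -0.71 ± 0.23. The mean level of that list was 6.96 to 7.84 in SBN/y and 6.89 to 7.17 in SBH/y, which overlapped. After uninephrectomy 1 adipose marker was higher and 1 lower. Ucp1, at -0.42 ± 0.38, and Fabp4, at -0.32 ± 0.23, were not called there. The part of these cells in the Mmp2 difference was not tested.

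Mmp14, the membrane-type metalloproteinase, differed little between the strains. The lowest, median and highest values were 7.90, 8.04 and 8.50 in SBN/y with both kidneys and 7.79, 7.91 and 8.15 after uninephrectomy. In SBH/y they were 7.76, 8.07 and 8.21 with both kidneys and 7.53, 7.77 and 8.01 after uninephrectomy. All 4 ranges overlapped. Uninephrectomy was followed by a log2 change of -0.25 ± 0.08 in SBH/y, just past the threshold (limma adjusted p 0.0469). That call was lost when the arrays were centred on their medians (limma adjusted p 0.0616) and in 20 of 28 fits that left out 1 array, with log2 differences of -0.30 to -0.21 and adjusted p values of 0.0157 to 0.122. Among these 28 fits the call was kept in those without array 1, 2, 6 or 7 of SBN/y with both kidneys. Arrays 2 and 7 of uninephrectomized SBN/y, 6 of SBH/y with both kidneys and 2 of uninephrectomized SBH/y were the others whose removal kept it. The second Mmp14 probe set, with a mean of 4.88, gave -0.02 ± 0.07. In SBN/y the effect was -0.16 ± 0.08, and the strain differences were -0.08 ± 0.08 and -0.17 ± 0.08, none called.

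Timp1, a secreted inhibitor known to bind the proenzyme of Mmp9 and to be induced in scarring tissue, rose after uninephrectomy in SBH/y. Its lowest, median and highest values were 6.79, 7.004 and 7.26 in SBH/y with both kidneys and 7.29, 7.55 and 7.74 after uninephrectomy. In SBN/y they were 6.74, 7.04 and 7.12 with both kidneys and 6.82, 6.90 and 7.06 after uninephrectomy. Every uninephrectomized SBH/y array lay above every array of the other 3 groups, which overlapped each other. Uninephrectomy changed Timp1 by 0.53 ± 0.08 log2 units in SBH/y, or 1.44-fold (limma adjusted p 6.44e-05), and the value differed by -0.09 ± 0.08 in SBN/y (limma adjusted p 0.868). The difference between these effects was 0.62 ± 0.11 (limma adjusted p 0.00442). Among the 7 members, Timp1 alone passed this test. The strains did not differ past the threshold with both kidneys, at -0.01 ± 0.08, and differed by 0.60 ± 0.08 after uninephrectomy (limma adjusted p 7.33e-07). Timp1 had 1 probe set.

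Timp2, which both inhibits metalloproteinases and helps Mmp14 to activate pro-Mmp2, rose by less. In SBH/y the lowest, median and highest values were 8.29, 8.42 and 8.46 with both kidneys and 8.52, 8.56 and 8.71 after uninephrectomy, with no overlap. In SBN/y they were 8.35, 8.43 and 8.58, and 8.40, 8.59 and 8.67. The uninephrectomy effect was 0.20 ± 0.04 log2 units in SBH/y (limma adjusted p 0.00347) and 0.12 ± 0.04 in SBN/y (limma adjusted p 0.331), and these effects differed by 0.08 ± 0.06 (limma adjusted p 0.71). The strain differences were -0.06 ± 0.04 and 0.02 ± 0.04, neither called. A second probe set, with a mean of 6.31, gave a log2 effect of 0.06 ± 0.06 in SBH/y, not called.

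Timp3, the inhibitor that binds to the extracellular matrix itself, was lower in SBH/y with both kidneys. The lowest, median and highest values were 11.57, 11.71 and 11.75 in SBN/y and 11.33, 11.44 and 11.54 in SBH/y, with no overlap. The log2 difference was -0.24 ± 0.05 (limma adjusted p 0.000846). After uninephrectomy the values were 11.57, 11.63 and 11.88 in SBN/y and 11.44, 11.62 and 11.72 in SBH/y, which overlapped, and the difference of -0.06 ± 0.05 was not called. The uninephrectomy effect was 0.16 ± 0.05 in SBH/y, just short of the threshold (limma adjusted p 0.053), and -0.03 ± 0.05 in SBN/y. The effect in SBH/y passed without array 6 of uninephrectomized SBN/y, array 5 or 7 of SBH/y with both kidneys, or array 2 or 5 of uninephrectomized SBH/y, with log2 effects of 0.13 to 0.18 and limma adjusted p values of 0.0263 to 0.125 over all 28 such fits. It also passed under quantile normalization (limma adjusted p 0.0372), median centring (0.0366), a filter on dim probe sets (0.0316) and a trended, robust variance (0.0218). It did not pass in a fit of the compared groups alone, nor with the clock gene score described below as a covariate. The change between the states was not shown to differ between the strains, at 0.18 ± 0.07 (limma adjusted p 0.265).

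Timp3 had 4 probe sets. With both kidneys the next brightest, with a mean of 10.18, was also lower in SBH/y, at -0.17 ± 0.06 and called. The remaining probe sets gave -0.05 ± 0.07 and -0.12 ± 0.08, not called. All 4 thus lay on the same side of 0, and 2 of them passed. For uninephrectomy in SBH/y the probe sets other than the brightest gave 0.11 ± 0.06, 0.04 ± 0.07 and -0.08 ± 0.08, none called.

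Mgp, expressed in vascular smooth muscle and cartilage and known to hold back calcification of vessels, rose after uninephrectomy in SBH/y. The lowest, median and highest values were 11.65, 11.78 and 11.90 in SBH/y with both kidneys and 11.93, 12.14 and 12.35 after uninephrectomy. In SBN/y they were 11.58, 11.70 and 11.81, and 11.79, 11.85 and 11.94. The SBH/y groups did not overlap, and the SBN/y groups did, with 5 of 7 uninephrectomized arrays above all of those with both kidneys. The effect was 0.39 ± 0.06 log2 units in SBH/y, or 1.31-fold (limma adjusted p 2.43e-05), and 0.15 ± 0.06 in SBN/y (limma adjusted p 0.323). Their difference of 0.24 ± 0.08 was not called (limma adjusted p 0.142). It passed without array 2 of uninephrectomized SBH/y, the array lowest for Mgp in its group (limma adjusted p 0.0351). The strains differed by 0.05 ± 0.06 with both kidneys, not called, and by 0.29 ± 0.06 after uninephrectomy (limma adjusted p 0.000157).

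**Figure D2:**
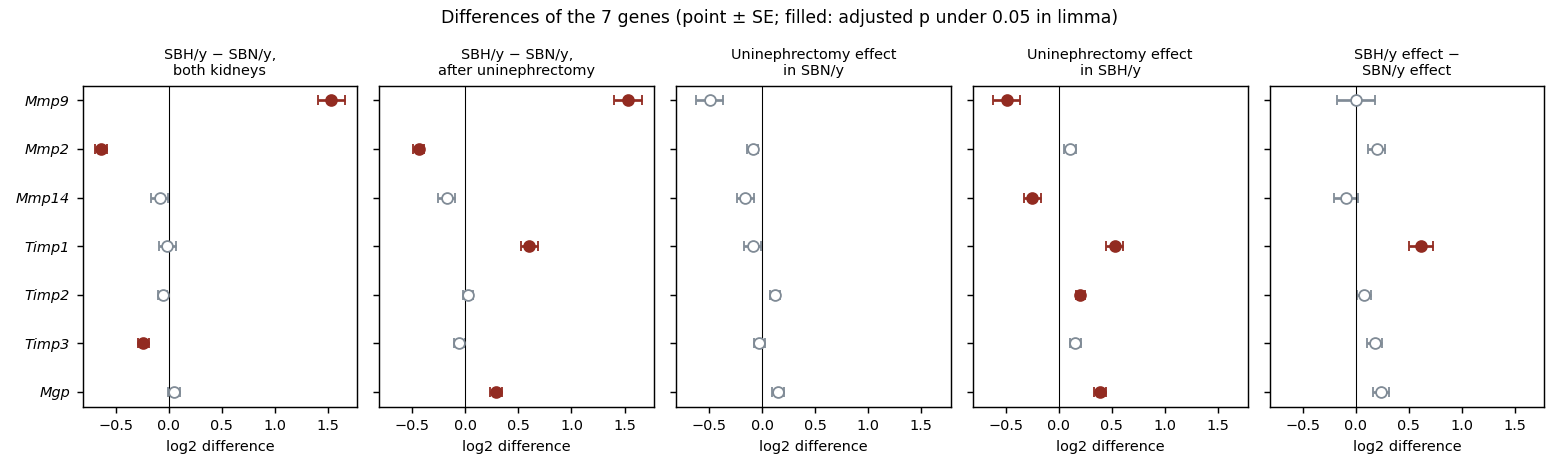
Log2 differences with their SE from limma (horizontal axis) for the 7 genes in the 5 comparisons; filled points had an adjusted p under 0.05. Timp1 is the filled point in the rightmost panel, the difference between the uninephrectomy effects of the strains, at 0.62 ± 0.11.

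Counted over the members, 3 of 7 were called between the strains with both kidneys, 1 higher (Mmp9) and 2 lower (Mmp2 and Timp3) in SBH/y. Among all 14217 genes 21.5% were called, 11.8% higher and 9.69% lower. After uninephrectomy 4 of 7 were called, 3 higher (Mmp9, Timp1 and Mgp) and 1 lower (Mmp2), against 26.8% of all genes, 14.9% higher and 11.9% lower. Uninephrectomy in SBH/y was followed by 5 called members, 3 higher (Timp1, Timp2 and Mgp) and 2 lower (Mmp9 and Mmp14), where 10.4% of genes were called, 4.85% higher and 5.51% lower. In SBN/y 0 of 7 were called by limma, against 0.605% of genes, 0.288% higher and 0.317% lower. There 3 members had an unadjusted p under 0.05 in limma, where 9.79% of all genes did, and also 3 in the exact permutation test. The difference between the effects was called for 1 member, Timp1, against 2.06% of genes, 0.964% higher and 1.1% lower. The median log2 difference of the members was -0.06, 0.02, -0.09, 0.16 and 0.18 in these 5 comparisons, in the order both kidneys, after uninephrectomy, effect in SBN/y, effect in SBH/y and difference of effects. Over all genes each of these medians lay between -0.01 and 0.013. With 7 members that were chosen with results of these data known, such counts describe the list.

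Arrays of the uninephrectomized SBH/y group also differed in the RNA of clock genes, and every effect in SBH/y is to be read beside that. The phase of the circadian clock was not measured. The labels do not give the time of day at killing, whose part was not tested. A clock gene score was computed for each array from 11 genes as the mean centred log2 value of 3 genes in phase with Bmal1, the clock's activator, and of 8 genes in antiphase, whose values entered as negatives. The score lay between 0.44 and 0.68 in SBH/y with both kidneys. After uninephrectomy it lay between -1.21 and -0.79 in 6 of 7 SBH/y arrays and at 0.66 in array 2. In SBN/y it lay between -0.28 and 0.47 with both kidneys, and after uninephrectomy at -0.89 in array 6 and between 0.17 and 0.59 in the other 6. In array 2 of uninephrectomized SBH/y, whose score was that of the arrays with both kidneys, Timp1 was at 7.33, Mgp at 11.93 and Timp2 at 8.52. These 3 values lay above all SBH/y arrays with both kidneys. In the same array Mmp14 was at 8.01, the highest of its group and within the range of the group with both kidneys, and Mmp9 was at 5.62, just below that range.

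With the score as a covariate the standard errors of the SBH/y effects grew, since the score separates most arrays of these groups, and 0 of 7 members were called by limma, with 4 at an unadjusted p under 0.05, where 9.57% of all genes were. The Timp1 effect was then 0.47 ± 0.12 (limma adjusted p 0.0974), that of Mgp 0.33 ± 0.08 (0.0893), that of Timp2 0.16 ± 0.07 (0.488), that of Mmp9 -0.53 ± 0.20 (0.374) that of Timp3 0.04 ± 0.07 (0.959) and that of Mmp14 -0.03 ± 0.11 (0.984). Without the score these effects were, in the same order, 0.53 ± 0.08, 0.39 ± 0.06, 0.20 ± 0.04, -0.49 ± 0.13, 0.16 ± 0.05 and -0.25 ± 0.08. In SBH/y the score went with uninephrectomy in all arrays but array 2 of the uninephrectomized group. The fit therefore cannot tell the part of the score from that of uninephrectomy. The difference of the Timp1 effects between the strains was 0.55 ± 0.16 (limma adjusted p 0.532), with 1 member at an unadjusted p under 0.05, where 5.38% of all genes were. With the score 0 probe sets were called for this difference of effects, so the calls of it given below for other genes were also lost. The strain differences of Mmp9 and Mmp2 with both kidneys were 1.55 ± 0.14 and -0.61 ± 0.06 in that fit, and Timp1 and Mgp after uninephrectomy differed by 0.56 ± 0.11 and 0.25 ± 0.07, all called.

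**Figure D3:**
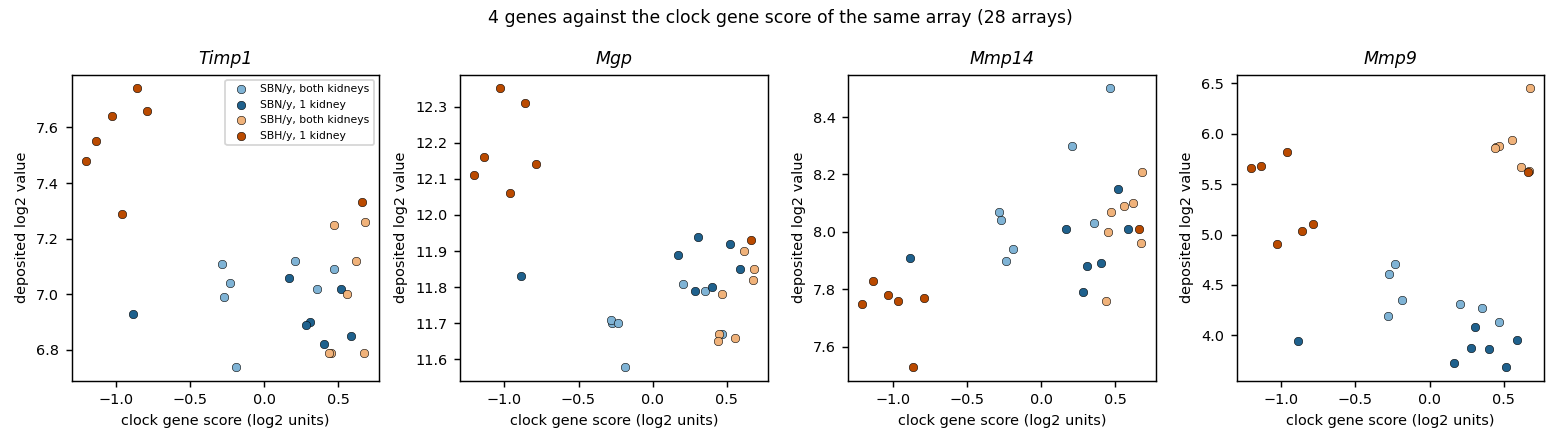
Deposited log2 value (vertical axes) of Timp1, Mgp, Mmp14 and Mmp9 against the clock gene score of the same array (horizontal axes, log2 units), with 1 point per array coloured by group. The uninephrectomized SBH/y array with a score of 0.66 has a Timp1 value of 7.33, above all arrays with both kidneys, and a Mmp14 value of 8.01, among them.

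Cell type markers in SBH/y after uninephrectomy are counted beside the 10.4% of all genes called there, 4.85% higher and 5.51% lower. Of 11 injured tubule genes 6 were higher and 0 lower, with a mean level of the list of 7.95 to 8.07 with both kidneys and 8.35 to 8.83 after uninephrectomy, which did not overlap. Of 7 podocyte markers 5 were lower and 0 higher, from 8.01 to 8.10 down to 7.53 to 7.85. Of 9 T cell markers 5 were higher and 0 lower, with overlapping levels of 4.70 to 4.96 and 4.85 to 5.19. Of 12 fibroblast markers 2 were higher and 1 lower, with overlapping levels of 7.05 to 7.29 and 7.17 to 7.35. Of 11 smooth muscle and pericyte markers, known sources of Mgp, 1 was higher and 1 lower. Their levels of 6.41 to 6.61 and 6.49 to 6.62 also overlapped. Of 10 endothelial markers 2 were lower and 0 higher. The part of these cells in the changes of Timp1, Timp2 and Mgp was not tested.

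Of 14 other metalloproteinases measured, 1 was higher and 2 lower in SBH/y with both kidneys, with a median of 0.01, a share close to the 21.5% of all genes. Mmp24, a membrane-type enzyme, differed by 0.64 ± 0.05, Mmp15, another of that type, by -0.49 ± 0.08 and Mmp7, matrilysin, by -0.25 ± 0.08. After uninephrectomy 3 were higher and 1 lower, near the 26.8% of all genes: Mmp24 at 0.60 ± 0.05, the macrophage elastase Mmp12 at 1.34 ± 0.15, Mmp11 at 0.49 ± 0.10 and Mmp15 at -0.74 ± 0.08. In SBH/y uninephrectomy was followed by a rise of Mmp12 alone among the 14, by 0.88 ± 0.15. Of all genes 10.4% were called there, 4.85% higher. The uninephrectomy effects of the strains on Mmp12 differed by 1.09 ± 0.21 (limma adjusted p 0.00541). Mmp12 lay between 4.61 and 5.19 in SBH/y with both kidneys and between 4.99 and 6.52 after uninephrectomy. All arrays of the other groups were below their array medians for Mmp12, so its fold is not exact. In SBN/y none of the 14 was called, against 0.605% of all genes.

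On a list of 11 other inhibitors, 9 were measured. The shares of all genes called were 21.5% with both kidneys, 26.8% after uninephrectomy and 10.4% for uninephrectomy of SBH/y. With both kidneys 1 was higher in SBH/y, the membrane-anchored inhibitor Reck at 0.22 ± 0.05, and 0 lower. After uninephrectomy 3 were higher and 0 lower. These were A2m, the protease trap alpha-2-macroglobulin, at 0.85 ± 0.12, Sparc at 0.28 ± 0.06 and Pcolce at 0.17 ± 0.05. Sparc is a collagen-binding protein and Pcolce an enhancer of procollagen processing, so neither is known mainly as an inhibitor of metalloproteinases. Uninephrectomy of SBH/y was followed by a rise of A2m by 0.94 ± 0.12 and of Sparc by 0.21 ± 0.06. A2m lay below the array medians in every array. Timp4, named here outside the naming rule as the remaining Timp gene, was not called in any of the 5 comparisons.

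**Figure D4:**
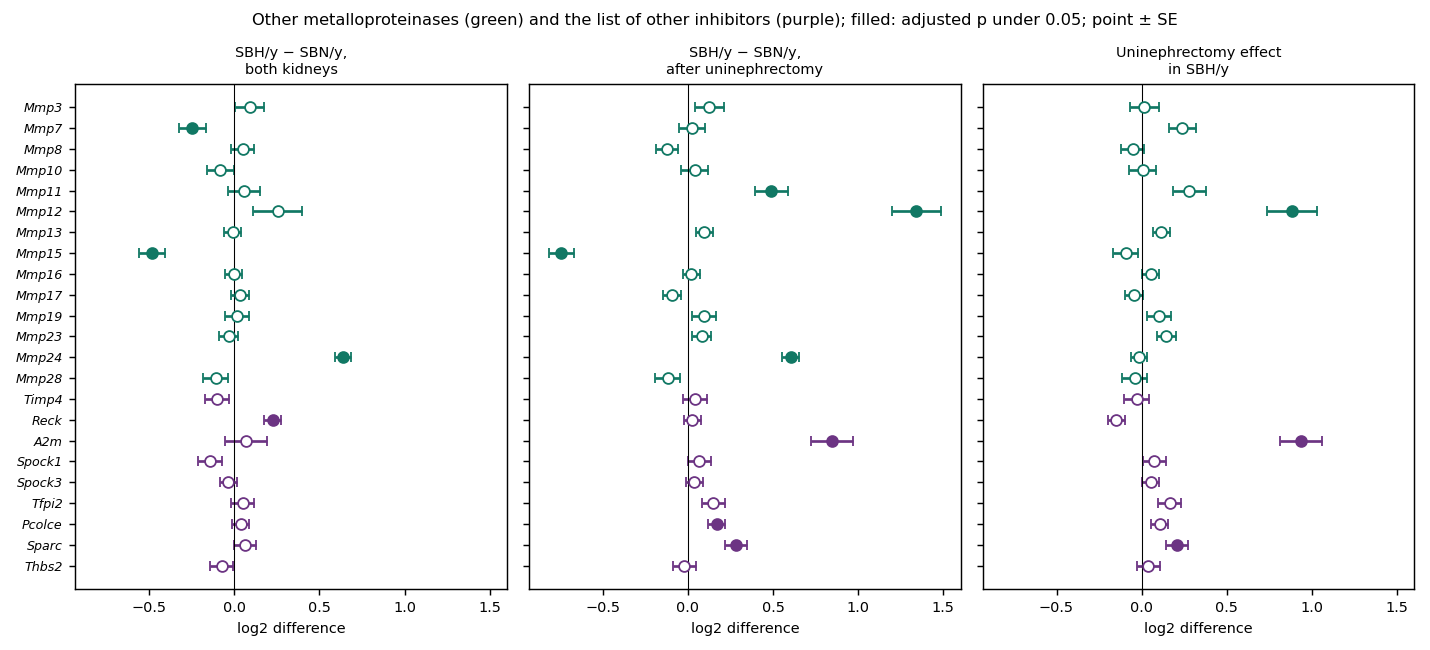
Log2 differences with their SE (horizontal axis) of 14 other metalloproteinase genes and 9 genes of the list of other inhibitors in 3 comparisons; filled points had an adjusted p under 0.05. Mmp12 and A2m are the filled points farthest to the right for uninephrectomy in SBH/y, at 0.88 ± 0.15 and 0.94 ± 0.12.

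Of 16 activators and partners of the metalloproteinases, 2 were higher and 2 lower in SBH/y with both kidneys, where 21.5% of all genes were called. After uninephrectomy 2 were higher and 4 lower, where 26.8% of all genes were. Cd44, a hyaluronan receptor that docks Mmp9 at the cell surface, rose after uninephrectomy in SBH/y by 0.50 ± 0.08, and its effect differed between the strains by 0.55 ± 0.11 (limma adjusted p 0.00772). Serpine2, a serpin that inhibits plasminogen activators, was higher in SBH/y by 0.97 ± 0.09 with both kidneys and 1.14 ± 0.09 after uninephrectomy. In SBH/y the tight junction gene Cldn1 fell by 0.48 ± 0.09 on the log2 scale, with a difference of -0.54 ± 0.13 between the strains' effects (limma adjusted p 0.032), and the plasminogen activator gene Plat fell by 0.26 ± 0.06.

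Among genes of proteins that metalloproteinases cut, 27 were measured, with 7 higher and 3 lower in SBH/y with both kidneys and 11 higher and 3 lower after uninephrectomy. The shares of all genes called were 21.5% and 26.8%. Both main chains of type IV collagen, a substrate of the gelatinases, were higher: Col4a1 by 0.33 ± 0.06 and Col4a2 by 0.26 ± 0.06 with both kidneys, and by 0.38 ± 0.06 and 0.40 ± 0.06 after uninephrectomy. Col4a4, a chain of the mature glomerular basement membrane, fell after uninephrectomy in SBH/y by 0.85 ± 0.13 on the log2 scale, while the fibrillar chain Col1a1 rose by 0.46 ± 0.09 there. In all, uninephrectomy of SBH/y was followed by 5 higher and 1 lower of these 27 genes, with a median of 0.06. Of all genes 10.4% were called there. In SBN/y 0 of the 27 were called by limma, against 0.605% of all genes.

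Of 20 inducers of metalloproteinases, 5 were higher in SBH/y with both kidneys and 7 after uninephrectomy, and 0 lower. Of all genes 21.5% were called with both kidneys, 11.8% higher, and 26.8% after uninephrectomy, 14.9% higher. Il1b, a cytokine, was higher by 0.68 ± 0.11 and 0.48 ± 0.11, and Nfkb1, a subunit of NF-kappaB, by 0.17 ± 0.04 and 0.44 ± 0.04, in this order. Uninephrectomy of SBH/y was followed by a rise of Nfkb1 by 0.19 ± 0.04 and of the growth factor Tgfb1 by 0.32 ± 0.07. Of 16 genes of mineralization and of the vitamin K cycle beside Mgp, 1 was higher and 2 lower after uninephrectomy of SBH/y. Among all genes 10.4% were called there. Spp1, osteopontin, rose by 0.86 ± 0.10. Tnfrsf11b, osteoprotegerin, which holds back bone resorption, fell by 1.12 ± 0.19 on the log2 scale, and its effect differed between the strains by -1.29 ± 0.27 (limma adjusted p 0.00996). The bone morphogenetic protein gene Bmp4 fell by 0.24 ± 0.06. Enpp1, which makes the calcification inhibitor pyrophosphate, was lower in SBH/y, with log2 differences of -1.20 ± 0.07 with both kidneys and -1.30 ± 0.07 after uninephrectomy.

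Probe sets of one gene did not always give the same answer, and the brightest one carried most calls. For each member with several, the correlation of the deviations from the group means between the probe set used and another was computed over the 28 arrays, as a description. For Timp3 it was 0.70 with the next brightest probe set, and -0.07 and -0.22 with the others, whose means of 8.30 and 8.16 lay above the array medians. It was 0.48 for Mmp9, 0.03 for Timp2, -0.25 for Mmp14 and -0.26 for Mmp2.

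**Figure D5:**
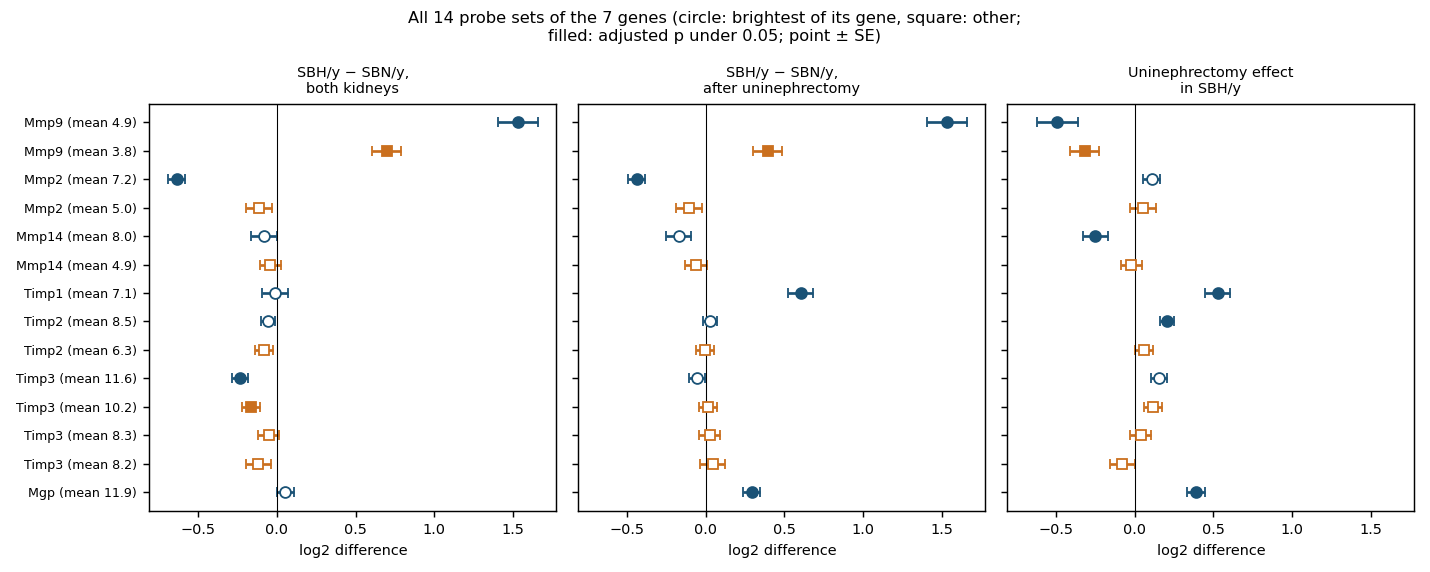
Log2 differences with their SE (horizontal axis) of all 14 probe sets of the 7 genes in 3 comparisons, with the mean log2 value over 28 arrays beside each; circles are the brightest probe set of a gene and filled symbols had an adjusted p under 0.05. Both Mmp9 probe sets are filled with the same sign in the strain comparisons, while for Mmp2 only the brighter one is filled.

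Within groups, the members varied mostly apart from each other. Over the 28 arrays the deviations from group means correlated highest between Timp1 and Mgp, at r = 0.67, then between Mmp2 and Timp2 at 0.44 and between Timp1 and Timp2 at 0.43. The lowest value, -0.40, was that of Mmp9 and Mgp. By the same measure the 3 genes most like each member were named, with no test. They were Aspdh (0.71), Ppme1 (0.70) and Coq5 (0.70) for Mmp9, and Col6a1 (0.73), Inpp4a (0.68) and Efcab2 (0.63) for Mmp2. For Mmp14 they were Gtf2h4 (0.87), Rpa1 (0.83) and Heca (0.82), and for Timp1 Tnfsf12 (0.72), Msi2 (0.72) and RT1-DMb (0.71). For Timp2 they were Khsrp (0.78), Atp5f1e (0.73) and Klf3 (0.71), for Timp3 Dynlt5 (0.76), Slc1a4 (0.75) and Cntn2 (0.74), and for Mgp Clec9a (0.74), Trpm3 (0.74) and Asns (0.73). These correlations share the arrays, their RNA and their joint normalization.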

How the data were processed

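The authors deposited log2 values of 31099 probe sets for each of 28 arrays of total kidney RNA, labelled with biotin. The submitters' processing notes name GCOS and RMA; their versions are not given in the sources used here. RMA quantile-normalizes the arrays, so differences in total RNA cannot be seen. Taking out 57 control probe sets left 31042, of which 20826 had 1 gene symbol, updated through the gene identifier in RefSeq's table. Contrasts of the deposited values came from lmFit and eBayes (limma 3.58.1, R 4.3.3), with 1 mean per group over all arrays, and p-values were adjusted over the 31042 probe sets (Benjamini-Hochberg, threshold 0.05). Shares of genes called use 1 probe set per gene. Single values were compared by exact two-sided permutation over 7 against 7 arrays, 28 tests, printed unadjusted. The fit was checked on simulated data. Genes named were all members and, for each member, the 3 most correlated genes. Up to 4 called members of each pathway list a comparison with the smallest p could also be named (not all such are named). Cell type lists are given by counts, with some single markers named as examples. Members and lists were chosen with earlier results of these data known. The alternatives tried were other normalizations, a filter on dim probe sets, another variance model, fits of the compared groups alone, the replicate number as a block, the clock score as a covariate, other probe sets and each array left out.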

Additional observations from a re-analysis of the deposited data

Results flagged for a closer look

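Timp1 stood out because its uninephrectomy effect differed between the strains, by 0.62 log2 units in the limma interaction test. In 4 of 28 sets of 7 arrays (7 members in 4 groups), a single array lay far from the rest by Dixon's test, where chance flags about 1 in 20. Mmp9 was at 6.45 in array 3 of SBH/y with both kidneys, against 5.63 to 5.94 in the others. Mmp2 was at 7.70 in array 5 of SBN/y with both kidneys, against 7.49 to 7.57. Timp1 was at 6.74 in array 7 of the same group, against 6.99 to 7.12. Timp3 was at 11.88 in array 6 of uninephrectomized SBN/y, whose clock gene score also lay apart, against 11.57 to 11.66.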

How the results depend on the processing

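Of 1283 alternative values for the 35 member differences, 1231 kept their direction and side of the threshold or were uncalled in both fits, 34 lost a call, 18 gained one and 0 reversed. In SBN/y the count of members called after uninephrectomy went from 0 to 1 (Mmp9) with the compared groups alone, with the replicate block and without array 3 of SBH/y with both kidneys, a range of 0 to 1 over fits without 1 array. The probe sets called there went from 144 to 60 and 280 in the first 2 of these fits, and to 62 to 167 without 1 array. For the SBH/y effect the clock score as a covariate gave 4 members at an unadjusted limma p under 0.05, and 8.28% of probe sets. It gave 0 members and 79 probe sets after adjustment, against 2558 probe sets without the score. For the difference of effects it gave 0 members (1 unadjusted) and 0 probe sets (1565 unadjusted, or 5.04% of those tested), against 439. For the strain difference after uninephrectomy it gave 4201 probe sets, against 6663. The difference of effects had 812 probe sets with the replicate block, 306 to 870 without 1 array and 1 to 2 members, the second being Mgp. Without the 2 uninephrectomized arrays whose clock score lay apart, chosen after seeing the data, it had 977 probe sets and 3 members, Timp1, Timp3 and Mgp. Same-numbered arrays of different groups correlated over 0.1 in 24 of 42 pairs, not in all, so the numbers were not taken as pairs. As a hint from the data of something shared, their mean correlation was 0.144 against -0.02 for other numbers, and 19 of 42 correlated best with their own number. Under the block Mmp9 for uninephrectomy in SBN/y had an adjusted p of 0.0459, and Mmp14 also passed between the strains after uninephrectomy (adjusted p 0.0268) and Timp3 for uninephrectomy in SBH/y (0.0336). Mmp9 lay below the filter on dim probe sets and has no value there. With the compared groups alone its SBH/y effect had an adjusted p of 0.0533. The Timp1 difference of effects stayed between 0.58 and 0.66 without any 1 array.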

Other observations

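The ADAM and ADAMTS proteases, relatives of the matrix metalloproteinases, held members that moved in opposite directions after uninephrectomy of SBH/y. Of 15 measured, 2 rose and 2 fell there, where 10.4% of all genes were called. Adamts1, which cuts proteoglycans, rose by 0.79 ± 0.08 log2 units and Adamts8 by 0.58 ± 0.06. The aggrecanase genes Adamts4 and Adamts5 fell by 0.62 ± 0.11 and by 0.55 ± 0.10 on the log2 scale. With both kidneys Adamts4 and Adamts5 had been higher in SBH/y than in SBN/y, by 0.67 ± 0.11 and 0.53 ± 0.10. The uninephrectomy effects of the strains differed by 0.55 ± 0.12 for Adamts1 and by -0.53 ± 0.14 for Adamts5 (limma adjusted p 0.012 and 0.0485). In SBN/y Adamts8 rose by 0.30 ± 0.06, the single call of this list there, where 0.605% of all genes were called. The clock gene score differed between the same SBH/y groups. With it as a covariate 0 probe sets were called for the difference of effects, so the calls of Adamts1 and Adamts5 were lost there. That fit cannot tell the part of the score from that of uninephrectomy, and the score's part was not tested otherwise.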
